A study of Mus musculus with 6 samples.

Results

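Chromatin accessibility at 36 neutrophil granule and effector genes was compared between MLL-ENL–transformed mouse fetal liver cells with and without C/EBPα and C/EBPβ. Regions were taken from a table of 10016 ATAC-seq regions if they overlapped the body of one of these genes or the 25 kb on either side. A region in several such windows was given to the gene with the nearest start site. This gave 38 regions at 22 of the 36 genes. ATAC-seq measures open chromatin by the reads that the Tn5 transposase leaves in accessible DNA.

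The series holds 6 samples in 3 groups of 2 replicates, and values for WT and dKO are given here, which rest on 4 libraries. All cells had been transformed by the MLL-ENL fusion oncogene and were grown with 10 ng/ml interleukin 3. WT cells are labelled wild-type; in the study's methods they derive from clones with floxed but intact Cebpa and Cebpb. The dKO cells lacked Cebpa and Cebpb and expressed GFP. They descend from colonies that survived recombination of both genes, and which clone was used for ATAC-seq was not given in the sources used here. The WT label names no vector, so that genotype, GFP vector and clone cannot be told apart in this comparison. The paper reports strong expression of the related factor C/EBPε as protein in all recovered dKO clones. The dKO cells are therefore not taken here as free of C/EBP factors. Cells lacking both genes and expressing GFP with the rat C/EBPβ isoform LAP* form the remaining group and were not analysed here.

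Neutrophils carry granules that are filled in sequence during their maturation. Azurophil granules with myeloperoxidase and serine proteases come first, in promyelocytes, and specific and gelatinase granules follow in myelocytes and later stages. C/EBPα is needed to form the granulocyte-macrophage progenitors in which the first granule genes are switched on, and C/EBPε is a regulator of specific granule genes. In mature cells, granule contents act together with the NADPH oxidase, which makes superoxide, and with receptors for bacterial peptides and lipid mediators.

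Accessibility is given throughout as the authors' group mean, which is the log2 of the mean number of normalised reads over the 2 libraries of a group. A difference is the log2 mean in dKO minus that in WT, so that a positive difference is higher in dKO. The table has no value per library, so no error, replicate test or interval of a difference can be given. It lists regions that passed the study's cutoff of the comparison and no others, and a gene without a region has no listed difference, which does not show that it is unaffected. For the same reason the labelled cell type could not be checked by constant marker regions. At the deleted genes, a region over Cebpa stood at 9.99 in WT against -0.15 in dKO on the log2 scale, and 2 regions over Cebpb went from 8.60 to 3.37 and from 7.38 to -0.15. The value of -0.15 is the lowest in the table and was taken as 1 read per library, which puts 3 reads per library at 1.43. No region at the neutrophil genes was at or under that level in either group.

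Most regions at the neutrophil genes were more accessible in cells without C/EBPα and C/EBPβ. Of the 38 regions, 31 (81.6%, 95% Wilson interval 66.6% to 90.8%) had a higher log2 mean in dKO, beside 60.3% of all listed regions. Regions of a gene are not independent, and the interval covers counting only. The median difference was 1.30 (quartiles 0.77 and 1.82), beside 0.98 (quartiles -1.57 and 1.76) over the whole table. At least 2-fold higher were 25 regions, beside 49.6% of all listed regions. At least 2-fold lower were 5 regions, beside 35.9% of the table. By gene, 16 had only higher regions, 4 had only lower regions and 2, Mpo and Ms4a3, had both. After subtraction of the table's median of 0.98 from every difference, 25 of the 38 were above zero, 12 below and 1 at zero.

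**Figure D1:**
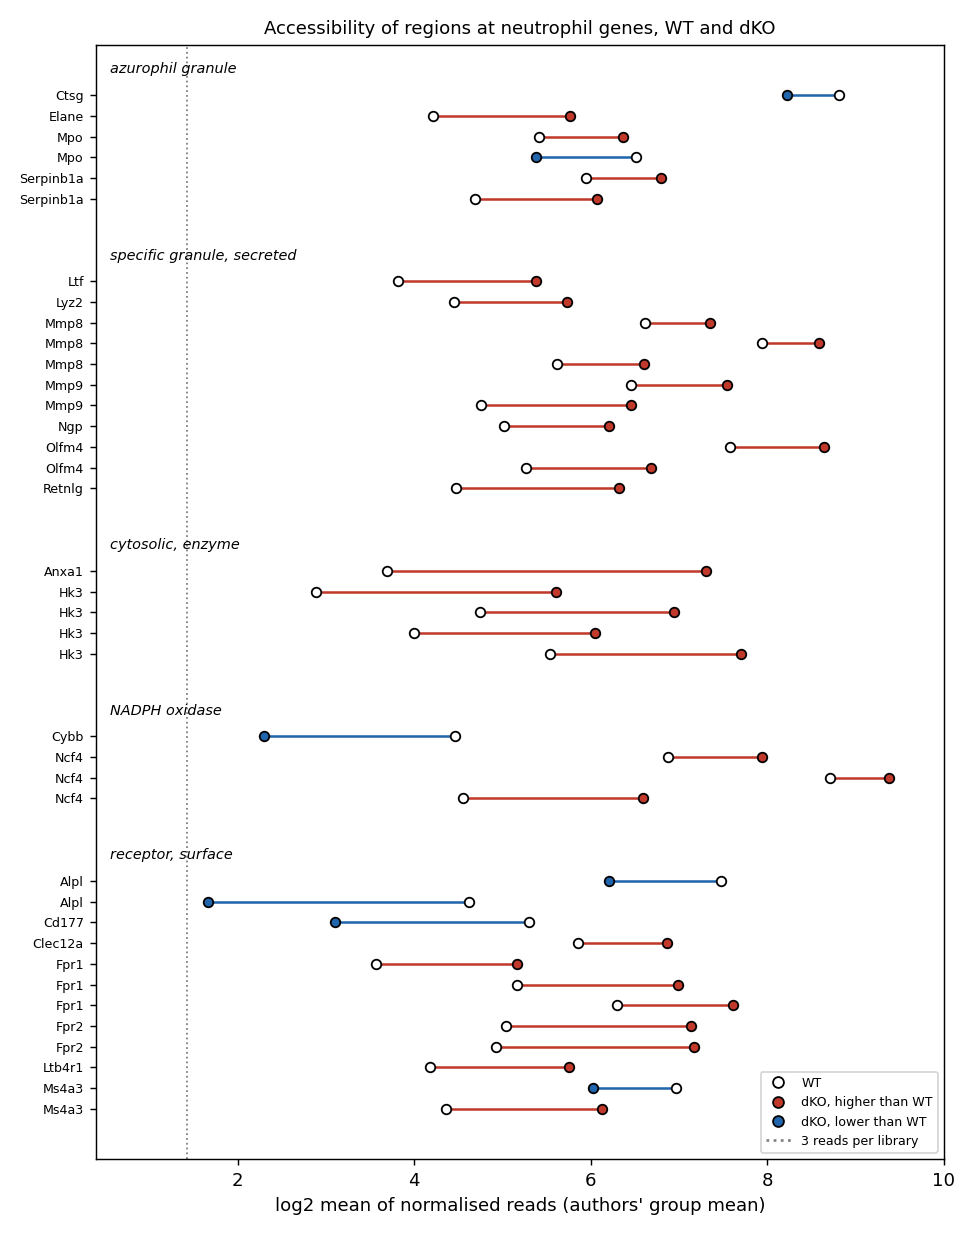
Log2 mean of normalised reads (horizontal axis) in WT (open points) and dKO (filled points) for each of the 38 regions, grouped by the role of the gene; the dotted line is the level of 3 reads per library, and no error bars exist because the table has group means only. Red lines mark the 31 regions that were higher in dKO and blue lines the 7 that were lower, and no lower region occurs among the specific granule and secreted proteins or the cytosolic proteins and enzymes.

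More of these genes had a listed region than is usual for a gene. A region lay in the window of 23 of the 36 genes (63.9%) before shared regions were assigned, beside 35.2% of 21755 protein-coding genes treated in the same way. The bodies of the 36 genes are shorter, with a median of 10432 bp beside 17414 bp for all protein-coding genes. Windows with a higher region made up 52.8% of the 36 and 22.8% of all protein-coding genes. Windows with a lower region made up 16.7% and 16.5%, respectively. The share with lower regions was thus near that of other genes and the share with higher regions was above it, which was not tested. The 36 genes were chosen with earlier results of these data known. The protein-coding genes were not matched to them for expression in these cells. These shares therefore only describe the list.

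The azurophil granule genes did not have a common direction. Mpo encodes myeloperoxidase, which makes hypochlorous acid. A region downstream of Mpo (chr11:87806139-87806941), in an untranslated exon of the neighbouring lactoperoxidase gene Lpo, stood at 6.51 in WT against 5.38 in dKO on the log2 scale, a difference of -1.13. A region upstream of Mpo (chr11:87779404-87779821) had 5.41 in WT and 6.36 in dKO. The latter lies in an intron of Tspoap1, 452 bp from a start site of that gene, so that its assignment to Mpo rests on the window alone. The pair shows opposite directions on the 2 sides of Mpo.

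Ctsg, the gene of the serine protease cathepsin G, had 1 region 2498 bp upstream of its start (chr14:56105072-56105959). Its log2 mean of 8.81 in WT compared with 8.22 in dKO. The difference of -0.59, or 1.51-fold lower, was the smallest of all 38 regions, although the region had the highest WT level per length, with 50.5 normalised reads per 100 bp. Elane encodes neutrophil elastase and Prtn3 proteinase 3, and the genes are neighbours on chromosome 10. They shared 1 region (chr10:79896906-79897216), which went to Elane by the nearer start and had 4.21 in WT and 5.76 in dKO. It lies 10659 bp from the Elane start, in an intron of Med16, whose own start is nearer.

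Serpinb1a encodes a cytosolic inhibitor of these neutrophil proteases. The region over its start site (chr13:32851051-32851360) stood at 4.69 in WT against 6.07 in dKO on the log2 scale, a difference of 1.38. A further region in an intron (chr13:32849076-32849484) had 5.95 and 6.80. The difference of 0.85 at the intron was below the table's median of 0.98. Over the azurophil group with this inhibitor, 4 of 6 regions were higher (66.7%, near the 60.3% of the table) and the median difference was 0.90. Without Serpinb1a, 2 of 4 regions were higher and the median was 0.18. With it, after centring on the table's median 2 were above and 4 below zero.

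All 11 regions at genes of specific and gelatinase granules and other secreted proteins were higher in dKO (interval 74.1% to 100%, beside 60.3% of the table). They lay at 7 of 12 genes, beside 35.2% of all protein-coding genes with a region. Their differences ran from 0.65 to 1.85 with a median of 1.18, and 8 were at least 2-fold higher, beside 49.6% of the table. After centring on the table's median, 8 were above zero, 2 at Mmp8 were below it and 1 at Mmp8 was at zero.

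Mmp8, the neutrophil collagenase, had 3 higher regions. The region over its start (chr9:7558203-7558601) had 6.61 in WT and 7.35 in dKO. The region over coding exon sequence (chr9:7567248-7567747) had 7.94 and 8.59, and that beyond its end (chr9:7572483-7573043), in an intron of Mmp27, had 5.62 and 6.60. These differences of 0.74, 0.65 and 0.98 were among the smallest at the neutrophil genes, and the coding region was the most accessible per length in dKO, with 77.1 normalised reads per 100 bp.

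Mmp9 encodes gelatinase B, the hallmark of gelatinase granules. An intronic region 1987 bp from its start (chr2:164942767-164943276) had 6.46 in WT and 7.54 in dKO. A region 12432 bp from its start, over coding sequence (chr2:164953212-164953581), had 4.76 and 6.45. Olfm4, which marks a subset of neutrophils in their specific granules, also had 2 regions. That over the RefSeq start (chr14:80000054-80000496) had 5.27 and 6.68, and that near an upstream start in GENCODE (chr14:79984931-79985692) had 7.58 and 8.64. At both genes the less accessible of the 2 regions had the larger difference, with 1.69 at Mmp9 and 1.41 at Olfm4.

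Single regions were listed at Ngp, Ltf, Lyz2 and Retnlg. Ngp, which encodes neutrophilic granule protein, had a region at an exon and intron within the gene (chr9:110421999-110422344) with 5.02 in WT and 6.20 in dKO. Lyz2, the lysozyme of myeloid cells, had a region 2663 bp upstream (chr10:117284984-117285305) with 4.45 and 5.73. Retnlg encodes a resistin-like secreted protein, and its region 486 bp upstream of the start (chr16:48871732-48872135) had 4.47 and 6.32, the largest difference of the group with 1.85. The region given to Ltf, the lactoferrin gene (chr9:111059230-111059713, from 3.81 to 5.38), lies beyond the end of the gene and nearer to the start of Ccrl2. Of these 4, only the Retnlg region was within 1 kb of a start site of its gene. Lyz2 and Elane are on chromosome 10, where 82.0% of all listed regions were higher in dKO; without that chromosome, 29 of 36 regions were higher.

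In the group of other cytosolic proteins and enzymes, 2 of 6 genes, Anxa1 and Hk3, had regions, a share near the 35.2% of all protein-coding genes. All 5 regions were higher, with a median difference of 2.20, and the interval of 56.6% to 100% includes the 60.3% of the table. As 4 of the 5 regions lie at Hk3 and are not independent, this interval covers counting only. Anxa1 encodes annexin A1, a phospholipid-binding protein that limits neutrophil recruitment. A region 2635 bp upstream of Anxa1 (chr19:20393579-20394097) stood at 3.69 in WT against 7.30 in dKO on the log2 scale. This difference of 3.61, or 12.2-fold, was the largest in either direction at the neutrophil genes. The region also lies in an intron of 1500015L24Rik.

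Hk3 encodes hexokinase 3, the hexokinase of myeloid cells, and had 4 regions, more than the other genes. The region over its start (chr13:55021013-55021716) had 5.54 in WT and 7.70 in dKO, a difference of 2.16. The intronic region beside it (chr13:55020112-55020480) had 4.00 and 6.05. Thus both regions at the start of Hk3 were more than 4-fold higher in dKO. Beyond the end of the gene, a region at chr13:55004591-55005079 had 4.74 and 6.94, and a region at chr13:55003073-55003327 had 2.89 and 5.61. They lie over coding exons of Unc5a, with Unc5a start sites nearer than that of Hk3. The differences of all 4 regions around Hk3 lay between 2.05 and 2.72, above the upper quartile of 1.76 over the table. Among the listed regions within 1 Mb of Hk3 and outside its window, 5 of 8 were higher.

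The NADPH oxidase genes differed among each other. Cybb encodes gp91phox, the catalytic membrane subunit, and its only region was lower in dKO. This intronic region (chrX:9450001-9450399), 18925 bp downstream of the RefSeq start, stood at 4.46 in WT against 2.30 in dKO on the log2 scale, a difference of -2.16 or 4.47-fold. Ncf4 encodes the cytosolic regulator p40phox, and its 3 regions were higher. Those at introns (chr15:78247619-78248047 and chr15:78257525-78258649) had 6.87 and 7.94, and 8.71 and 9.38, respectively. A region beyond the end of Ncf4 (chr15:78267859-78268238) had 4.55 and 6.59, a difference of 2.04. No region was listed at Cyba, the gene of the membrane partner p22phox, or at Ncf1, the gene of the organiser p47phox. After centring, 2 of the 4 oxidase regions were above zero.

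Among receptors and surface proteins, 7 of 9 genes had regions, beside 35.2% of all protein-coding genes. Of their regions, 8 of 12 (66.7%, interval 39.1% to 86.2%) were higher in dKO, a share near the 60.3% of the table. The median difference was 1.44. Fpr1 and Fpr2 encode formyl peptide receptors, which sense bacterial peptides and endogenous ligands such as annexin A1, and lie side by side on chromosome 17. A region in an intron of Fpr2 (chr17:17889772-17890381) stood at 5.04 in WT against 7.13 in dKO on the log2 scale. A region beyond its end, in an intron of Fpr3 (chr17:17900740-17901161), had 4.92 and 7.17. These differences of 2.09 and 2.25 were the largest positive ones among the receptor and surface genes. Beyond the end of Fpr1, an intergenic region (chr17:17871631-17872078) had 6.30 and 7.61. The next (chr17:17865173-17865539) had 5.16 and 6.99, and the farthest (chr17:17860164-17860450), like the one before it nearer to Has1, had 3.57 and 5.16. All 5 listed regions between 17860164 and 17901161 on chromosome 17 were higher in dKO, as were 5 of 5 listed regions in the surrounding 1 Mb on either side. At Ltb4r1, the gene of the leukotriene B4 receptor, the region over the start (chr14:55765739-55766020) had 4.18 and 5.75.

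Clec12a, an inhibitory C-type lectin receptor, had a region over its RefSeq start (chr6:129349621-129350430) with 5.85 in WT and 6.86 in dKO, a difference of 1.01. Ms4a3 is a membrane protein of granulocyte-macrophage progenitors. A region within an intron of Ms4a3 (chr19:11634397-11634768) had 6.96 and 6.02, whereas a region 5322 bp upstream (chr19:11646173-11646590) had 4.36 and 6.13. The difference of -0.94 within the gene stood beside 23 of 23 higher regions within 1 Mb outside the windows.

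At Cd177 and Alpl the listed regions were lower. Cd177, a neutrophil surface glycoprotein also held in specific granules, had the only start-site region that was lower in dKO (chr7:24760240-24760512). Its log2 mean of 5.30 in WT compared with 3.10 in dKO, a difference of -2.20. In the surrounding 1 Mb, 13 of 19 regions were higher. Alpl encodes the tissue-nonspecific alkaline phosphatase of neutrophil secretory vesicles. Its intronic region (chr4:137787872-137788148) had 4.62 and 1.66, a difference of -2.96 or 7.78-fold, which was the most negative, and its dKO level was close to 3 reads per library. A region beyond the end of Alpl (chr4:137724767-137725163) had 7.47 and 6.21 but lies 166 bp from a start site of Rap1gap. Around Alpl all 13 listed regions within 1 Mb outside the windows were also lower, so that Alpl had the direction of its surroundings, unlike Cd177.

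**Figure D2:**
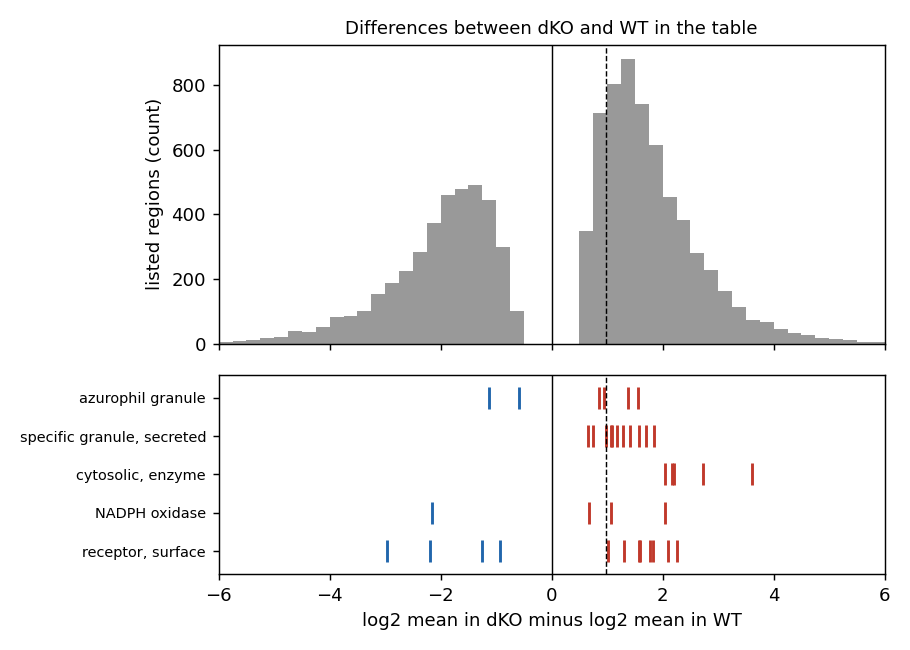
Difference between dKO and WT (log2 mean in dKO minus log2 mean in WT, horizontal axis) as a histogram of all 10016 listed regions (above; 11 regions lie outside the axis) and as 1 tick for each region at the neutrophil genes by role (below). The solid line is zero and the dashed line the table's median of 0.98; the 5 ticks in the row of cytosolic proteins and enzymes, which are all at Anxa1 and Hk3, lie at 2.05 or more, and the gap around zero exists because only regions past the study's cutoff were listed.

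The 7 lower regions were then inspected for C/EBP motifs, because both deleted genes encode C/EBP factors. The consensus TTACNNAA or TTGCNNAA was searched on both strands in the central 200 bp of each region. It was found in 5 of 7 lower regions (71.4%, interval 35.9% to 91.8%), beside 40.8% of 3981 lower regions in the table. The 5 were those of Alpl (intron), Cd177, Cybb, Ctsg and Ms4a3. The lower regions with the largest differences are printed from the GRCm38.p6 genome, which has the chromosomes of mm10, on the plus strand, with motif matches in capitals. For Cd177 the stretch begins just before the first exon, which is left out.
Alpl intron, chr4:137787911-137788110: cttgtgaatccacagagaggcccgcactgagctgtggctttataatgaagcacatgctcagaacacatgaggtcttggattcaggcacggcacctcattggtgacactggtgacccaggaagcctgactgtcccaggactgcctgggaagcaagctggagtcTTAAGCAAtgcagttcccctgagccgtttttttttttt
Cd177 promoter, chr7:24760312-24760476: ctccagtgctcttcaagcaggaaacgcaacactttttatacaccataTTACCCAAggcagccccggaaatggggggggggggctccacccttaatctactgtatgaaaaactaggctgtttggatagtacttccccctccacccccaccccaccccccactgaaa
Cybb intron, chrX:9450101-9450300: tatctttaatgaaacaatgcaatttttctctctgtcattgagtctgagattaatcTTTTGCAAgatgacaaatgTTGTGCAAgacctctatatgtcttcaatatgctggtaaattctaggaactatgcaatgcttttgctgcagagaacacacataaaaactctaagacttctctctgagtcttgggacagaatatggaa

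The Cybb region held 2 C/EBP matches, and the Alpl and Cd177 stretches held 1 each. A match is a description of the letters and does not show that a factor binds there.

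In higher regions the C/EBP consensus was found in 8 of 31 (25.8%, interval 13.7% to 43.2%), beside 20.1% of 6035 higher regions in the table. The AP-1 consensus TGACTCA was found in 6 of 31 (19.4%, beside 26.7%), the PU.1 consensus GAGGAAGT in 4 (12.9%, beside 13.1%) and the RUNX consensus AACCACA in 1 (3.23%, beside 13.8%). The RUNX share rested on the width searched, and in the central 400 bp it was 19.4% beside 20.7%. The C/EBP share in the central 400 bp was 41.9% beside 33.3%. In the central 200 bp of the 7 lower regions, AP-1 was found in 1 (14.3%, beside 4.67% of all lower regions). RUNX was found there in 1 (14.3%, beside 9.04%) and PU.1 in 0 (beside 3.34%). Each consensus was searched on both strands and none of the shares was tested. Of the 31 higher regions, 14 held none of the 4 motifs in their centre. The 3 with the largest differences that held a motif are printed in the same way. The capitals mark AP-1 matches at Anxa1 and in the Fpr2 intron, and C/EBP matches in the region beyond Fpr2.
Anxa1 upstream, chr19:20393739-20393938: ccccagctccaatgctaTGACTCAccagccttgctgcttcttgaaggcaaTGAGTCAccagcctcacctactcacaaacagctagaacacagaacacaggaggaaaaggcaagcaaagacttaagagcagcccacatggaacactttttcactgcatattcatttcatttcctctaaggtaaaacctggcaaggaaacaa
Fpr2 downstream, chr17:17900851-17901050: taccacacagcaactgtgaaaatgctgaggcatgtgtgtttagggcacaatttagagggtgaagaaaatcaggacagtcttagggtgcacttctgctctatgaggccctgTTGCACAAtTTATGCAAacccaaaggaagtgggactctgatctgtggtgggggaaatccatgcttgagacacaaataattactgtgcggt
Fpr2 intron, chr17:17889977-17890176: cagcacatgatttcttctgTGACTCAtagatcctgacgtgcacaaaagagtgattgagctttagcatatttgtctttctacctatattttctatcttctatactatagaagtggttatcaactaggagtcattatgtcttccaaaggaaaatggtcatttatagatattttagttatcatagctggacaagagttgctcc

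The Anxa1 region, with the largest difference of all, held 2 AP-1 matches and no C/EBP match in this stretch. The region beyond Fpr2 was more than 4-fold higher in cells without C/EBPα and C/EBPβ and held 2 neighbouring C/EBP matches. Whether C/EBPε, which the paper reports in dKO clones, binds there was not tested.

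**Figure D3:**
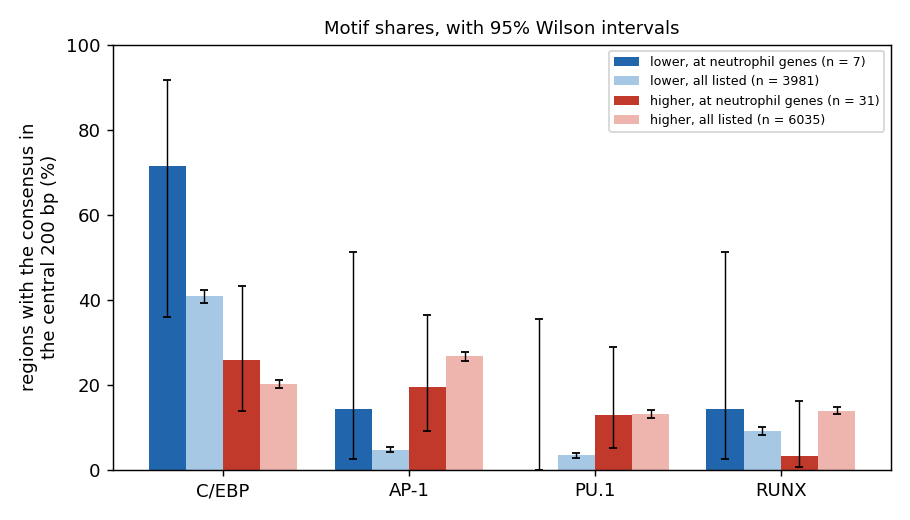
Share of regions with each consensus in the central 200 bp (vertical axis, percent), for lower and higher regions at the neutrophil genes and in the whole table; error bars are 95% Wilson intervals, which cover counting only. The C/EBP share is highest in the 7 lower regions at neutrophil genes (71.4%), and their interval includes the 40.8% of all lower regions.

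Regions within 1 kb of an annotated start of their gene, internal transcript starts included, numbered 11, at 9 genes, and 10 of them were higher in dKO, beside 1091 of the 1912 regions of the table within 1 kb of any start. Counting start sites of any gene, 15 of 38 regions (39.5%) lay within 1 kb, beside 19.1% of the table. Windows around genes favour regions near starts, so these shares were not read against each other. In the bodies outside starts 7 of 10 regions were higher, and in the flanks 14 of 17, beside 60.3% of all listed regions. Higher and lower regions were similar in width (medians of 418 bp and 397 bp) and GC content (48.6% and 47.3%). Higher regions had a median WT log2 mean of 5.02 and lower regions of 6.51, beside 4.52 and 5.93 for all higher and all lower regions.

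**Figure D4:**
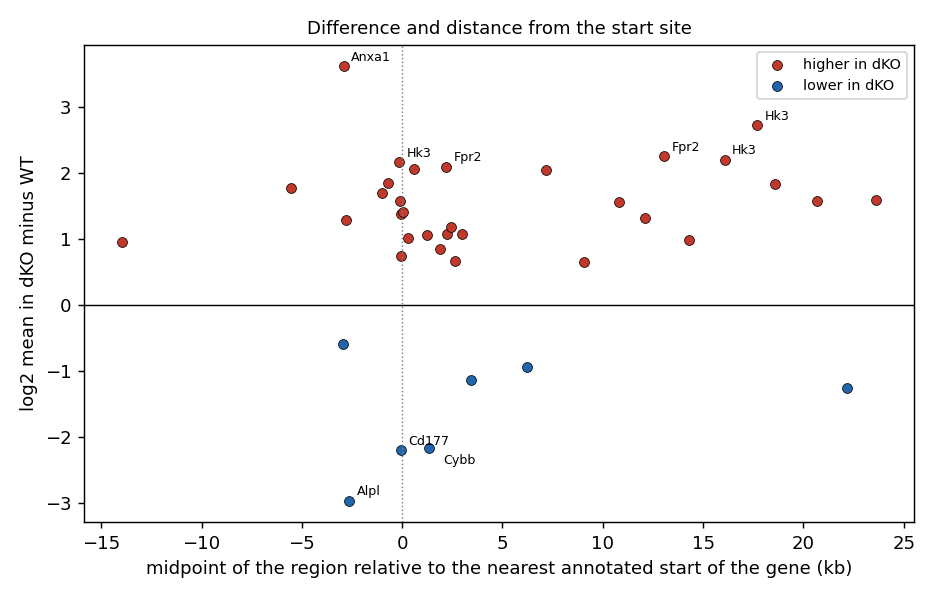
Difference between dKO and WT (vertical axis, log2) against the distance of the region's midpoint from the nearest annotated start of its gene (horizontal axis, kb, negative upstream), 1 point for each of the 38 regions. Higher regions occur at, upstream and downstream of start sites, with Anxa1 highest (3.61), and at start sites only Cd177 was lower (-2.20).

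RefSeq promoter sequences were found for 32 of the 36 genes, in 34 entries that reach from 250 bp before to 50 bp after the start. The C/EBP consensus was in 14 of the 34 (41.2%), beside 18.5% of all 32851 promoters of the same length. The PU.1 consensus was in 7 (20.6%, beside 3.20%), RUNX in 3 (8.82%, beside 5.27%) and AP-1 in 1 (2.94%, beside 5.20%). C/EBP matches occurred at promoters of genes without a listed region, such as Chil3, Lcn2, Mgst1 and S100a9, and at those of Mmp8 and Clec12a, whose start-site regions were higher in dKO. A match also occurred at Cd177, whose start-site region was lower. The 250 bases before the start are printed for Mmp8, whose region was modestly higher, and for Hk3, whose region had the largest positive difference over a start; capitals mark C/EBP and PU.1 matches at Mmp8 and a RUNX match at Hk3. Both are in the direction of the gene.
Mmp8 promoter, chr9:7558179-7558428, plus strand: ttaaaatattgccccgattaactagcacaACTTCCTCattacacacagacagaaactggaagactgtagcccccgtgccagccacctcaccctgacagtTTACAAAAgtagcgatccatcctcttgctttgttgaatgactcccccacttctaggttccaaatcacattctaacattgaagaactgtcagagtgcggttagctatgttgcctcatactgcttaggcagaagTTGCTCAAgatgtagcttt
Hk3 promoter, chr13:55021386-55021635, minus strand: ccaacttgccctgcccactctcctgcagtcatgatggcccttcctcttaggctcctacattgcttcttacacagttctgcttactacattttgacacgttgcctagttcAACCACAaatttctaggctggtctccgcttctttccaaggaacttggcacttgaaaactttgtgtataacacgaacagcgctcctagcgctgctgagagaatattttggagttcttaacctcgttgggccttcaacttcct

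The Mmp8 sequence held 2 C/EBP matches and 1 PU.1 match, and the Hk3 sequence had no C/EBP match.

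No region was assigned to 14 genes. Among them was Prtn3, which shared its region with Elane. Of the specific granule and secreted proteins, these were Lcn2, Camp, Chil3, Hp and Pglyrp1. Of the cytosolic proteins and enzymes, they were S100a8, S100a9, Padi4 and Mgst1. The others were Cyba and Ncf1 of the oxidase, and Cd63 and Ceacam1 in the group of receptors and surface proteins. S100a8 and S100a9 encode the calprotectin subunits, and the nearest listed region lay 81.5 kb and 105.1 kb away. For Lcn2, the gene of the iron-sequestering lipocalin 2, it lay 31.1 kb away and was lower in dKO, with 5.22 in WT and 3.65 in dKO. For Camp, the gene of the cathelicidin precursor, no region was listed within 183.7 kb. The median distance over the 14 genes was 86.4 kb.

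A further list of 23 neutrophil genes served for comparison, among them integrins and receptors. Like the main list, it was chosen with earlier results of these data known. It had 28 regions at 14 of the 23 genes, beside 35.2% of all protein-coding genes with a region. Of the 28, 26 were higher in dKO (92.9%, interval 77.4% to 98.0%, beside 60.3% of the table) and 20 at least 2-fold higher, beside 49.6%. The median difference was 1.28. Itgb2, the integrin β2 subunit on chromosome 10, held 8 of these, all higher, with 5.74 in WT and 7.22 in dKO over its start. Itgam, its partner CD11b, held 4, with differences from 0.71 to 2.70, the last of which lies at a start site of Itgax. On chromosome 10, 82.0% of all listed regions were higher in dKO. All regions given to Adam8, Rac2 and Mmp25, and some given to Itgb2 and Itgam, lie nearer to the start of another gene. The lower regions were 1 in the window of Bpi (-0.77), which lies at a start site of Lbp, and 1 upstream of Csf3r, the G-CSF receptor gene (-1.14), which also had a higher region (1.36). After centring, 20 were above and 8 below zero.

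The wider surroundings had fewer higher regions, a difference that was not tested. Within 1 Mb of the 36 genes but outside their windows, 359 listed regions had a share of 58.5% higher and a median difference of 0.86, beside 81.6% and 1.30 in the windows. For 11 of the 38 regions, the start site of another gene was nearer than that of the gene they were assigned to. The 27 regions nearest to their own gene were 21 higher and 6 lower.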

How the data were processed

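ATAC-seq was performed on 50000 sorted cells per sample, with an average of 25 M reads per sample per the labels, and the depth of each library is unknown. Per the methods and the submitters' processing notes, the authors preprocessed reads with PiGx, used Bowtie 2 for alignment (mm10) and MACS for peaks, and compared groups in DiffBind 2.14.0. Handling of duplicates, the Tn5 offset and peak merging were not given in the sources used here; kept duplicates would raise strongly amplified regions. The authors deposited log2 means of normalised reads per region and group, together with their own fold change, p-value and FDR columns, which were not used. The 2 deposited files were identical, and LAP* cells were not analysed here.

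Differences between the deposited log2 means were computed in Python 3.11.15 with pandas 2.3.3. Genes and start sites came from GENCODE M21, distances being measured from the nearer edge, and sequences from GRCm38.p6 and RefSeq. All members with regions were named, with values for regions at starts, the largest difference of each member and all regions of the 4 members with most. The promoters printed were chosen after their values were seen. The members, roles and gene lists were chosen with earlier results of these data known. Assignment and motif search were checked on simulated data. The group means have no replicate values, so no test was made. Consensus words were searched on both strands. The values of 1 gene of the comparison list are not reported here.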

Additional observations from a re-analysis of the deposited data

How the results depend on the processing

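No paired analysis was possible because values per library were not analysed here, only group means. Leaving out replicates, other pseudocounts and a limma fit could not be run on such means. Counts of regions and genes at the 36 genes kept within 1.5 times of those reported, and their median difference within 0.1, except as follows. In the gene body alone there were 20 regions at 14 genes, 16 higher and 4 lower, 15 of them at least 2-fold different, with a median of 1.07 (1.065). Where the nearest start site of any gene had to be that of the assigned gene, the median was 1.18. Centring on the table's median gave a median of 0.315, 12 lower regions and 15 at least 2-fold different; it turned 5 regions, at Mpo, Mmp8 (2), Ncf4 and Serpinb1a, by construction. When regions with a mean level below the lower quartile (4.69) were dropped, 4 lower regions were left. Without Fpr1, Fpr2 and Hk3, chosen after seeing the data as were the omissions of chromosome 10 and Serpinb1a, the median was 1.06. Without Serpinb1a, the azurophil group had 4 regions, 2 higher, and a median of 0.18 in place of 0.90. Windows of 10 kb and 50 kb gave 33 and 46 regions, with 27 and 36 higher. In whole regions the C/EBP share of higher regions was 45.2% (35.3% of all higher regions), the RUNX share 19.4% (22.3%) and the PU.1 share 22.6% (1089 of all 6035). In the central 400 bp these were 41.9% (33.3%), 19.4% (20.7%) and 19.4% (16.7%). The C/EBP share of lower regions was 71.4% throughout, beside 52.9% and 54.3% of all lower regions in the central 400 bp and whole regions. Depth limits the lower group at the Alpl intron, which was close to 3 reads per library.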
